A study of Drosophila melanogaster with 11 samples.

Results

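Larvae that carry both the act-Gal4 driver and the HP1-21 line, read here as the P of the array titles, were compared with larvae that carry only 1 of these, over males and females together. The comparison rests on 3 of the 11 arrays of the series, 2 from P/act-Gal4 males and 1 from P/act-Gal4 females. They were chosen by their titles and set against all 8 control arrays, with sex as a covariate. The question was which transcripts moved in the same direction in both sexes and lay outside both control genotypes.

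The arrays, Affymetrix Drosophila 2.0 chips, each received labelled total RNA from entire larvae of the third instar. The P/act-Gal4 larvae (HP1-21/act-Gal4 in the design text, +/P-act in the genotype labels) carried both transgenes on a background of y w. The act-Gal4 controls (2 arrays of males and 2 of females) carried the driver alone as y w; +/+; +/act-Gal4, and the P controls (again 2 and 2) carried the HP1-21 insertion alone. The y w alleles were common to all groups, and no group lacked both transgenes. In the published work on this line HP1-21 is a GAL4-driven RNA interference construct against HP1, and the actin promoter of act-Gal4 is active in most cells; the labels themselves do not state this. The design text speaks of larvae from independent populations, but the labels tie no array to a population, so p-values measure the spread between these arrays, which may be technical. The age within the instar is not given.

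HP1 binds histone H3 methylated at lysine residues in pericentric heterochromatin and recruits other silencing factors. It also lies along the small chromosome 4, whose genes sit in heterochromatin, and at many active genes elsewhere. Late in larval life a rise of the steroid ecdysone, acting through the receptor EcR and early genes such as broad (br), switches salivary glands from glue to other secretions and sets off the change to the pupa.

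The driver was present where the titles place it. A control probeset on the chip that carries GAL4 sequence, recognised by the sequence accession in its name and not by the annotation table, read 10.01 and 10.05 log2 intensity units on the P/act-Gal4 male arrays and 9.42 on the P/act-Gal4 female array. It read 8.95 and 8.93 in act-Gal4 control males and 8.90 and 8.79 in act-Gal4 control females, against 2.91 and 3.05 in P control males and 3.53 and 3.03 in P control females. All 3 arrays with both transgenes therefore read above the 4 arrays with the driver alone.

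The HP1 gene itself, on chromosome arm 2L and also known as Su(var)2-5, did not pass as a change shared by the sexes. It read 7.84 and 7.52 on the P/act-Gal4 male arrays and 8.02 on the P/act-Gal4 female array. The act-Gal4 controls read 8.35 and 8.39 in males and 8.04 and 8.03 in females, and the P controls 8.03 and 8.07 in males and 7.95 and 8.06 in females. Both P/act-Gal4 male arrays lay below all 4 control male arrays, whereas the P/act-Gal4 female array lay within the range of the control females. The shared log2 change was -0.33 ± 0.12 (SE), with an adjusted p of 0.105. Without the P/act-Gal4 female array the value was -0.53, with an adjusted p of 0.0211. The difference between the male and the female change did not pass its own test (log2 difference -0.53, adjusted p = 0.327). The P/act-Gal4 arrays of both sexes thus share a genotype and not a measured loss of the HP1 transcript.

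**Figure D1:**
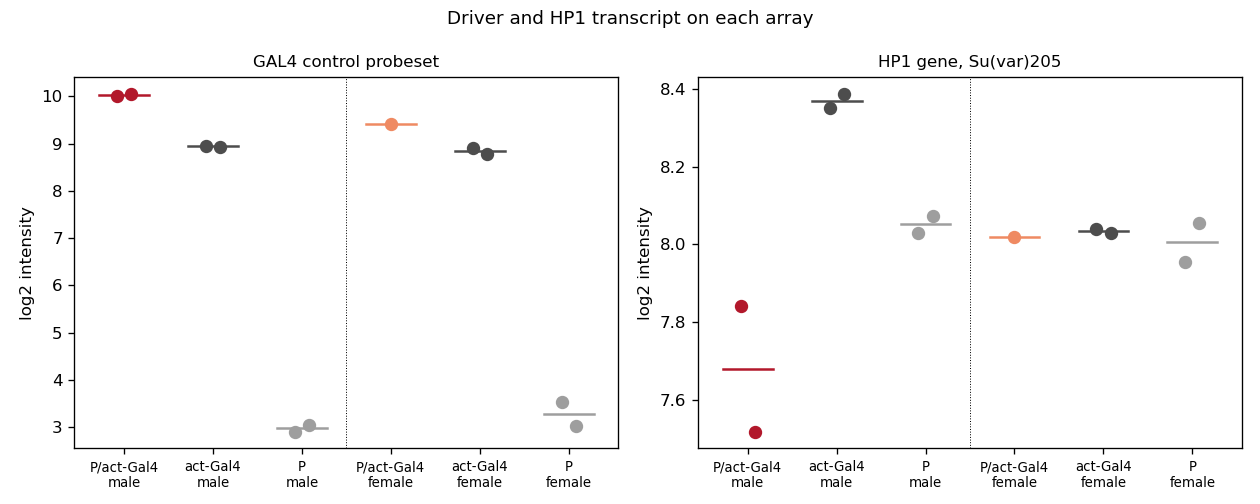
Log2 intensity of the GAL4 control probeset (left) and of the HP1 gene (right), on each array; points are arrays, horizontal lines are group means, and the dotted line divides males from females. The driver probeset reads at least 8.79 wherever act-Gal4 is present, and the HP1 transcript is below its controls on the 2 P/act-Gal4 male arrays alone.

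Measures of the RNA moved with genotype as well. The eIF4a transcript is read by a 3′ and a 5′ control probeset, and the gap between them grows as labelled RNA becomes shorter. The gap was 3.66 and 3.72 log2 units on the P/act-Gal4 male arrays and 3.47 on the P/act-Gal4 female array. It ranged from 4.30 to 4.98 in control males and from 3.89 to 4.28 in control females. The groups did not overlap in either sex, and the difference was -0.79 (exact two-sided permutation test within sexes over 75 arrangements, p = 0.0133, 0.04 after adjustment over 3 transcripts). The value for actin was -0.73 (exact p = 0.0267, adjusted 0.04) and that for GAPDH was -0.55 (exact p = 0.08, adjusted 0.08). The part of RNA quality in the results below was not tested, and it cannot be told apart from genotype. The P/act-Gal4 female array was also read for transcripts of males. Of 63 probesets with a control level at least 32-fold higher in males than in females, 50 (79.4%) lay above all 4 control females there, with a median change of 0.46. These 63 were chosen with the same control females, where they were low. Of 726 probesets at least 4-fold higher in control males, 172 (23.7%) lay above all 4 control females, with a median change of 0.01, and over all tested probesets the share was 23.3%. The median level of the 63 was 3.82 on that array and 3.24 to 3.28 in control females, against 9.17 to 9.38 on the male arrays.

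A probeset was called when 2 conditions held. Its change had an adjusted p under 0.05, and in each sex every P/act-Gal4 array lay beyond all 4 control arrays of that sex, on the same side in both sexes. With the P/act-Gal4 female array left out, the second condition was asked of males alone. Counts given below without that array are therefore calls in males and not shared calls. The rule called 2021 of 18769 probesets (10.8%), of which 1309 were higher (6.97%) and 712 lower (3.79%) in larvae with both transgenes. With 1 probeset kept for each of 11982 genes, 1571 genes were called (13.1%), 990 of them higher (8.26%) and 581 lower (4.85%). Without P/act-Gal4 male replicate 1, 614 genes were called higher and 264 lower. Without P/act-Gal4 male replicate 2 these numbers were 438 and 239, and without the P/act-Gal4 female array 1104 and 899. Against the act-Gal4 control alone they were 1462 and 1060, and against the P control alone 1581 and 1050. Counts of gene lists given below for these settings are to be read beside these numbers. The adjusted p alone passed 2299 probesets (12.2%), 1444 higher (7.69%) and 855 lower (4.56%), so the demand on single arrays removed 278 of them. Over genes it passed 1099 higher (9.17%) and 704 lower (5.88%). Without any p, 1885 probesets (10%) lay above and 1522 (8.11%) lay below the controls on every array.

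Most of these changes were small. Of the 2021 probesets, 163 changed at least 2-fold, 113 upwards and 50 downwards. Their median absolute log2 change was 0.54 in males and 0.46 on the female array, against 0.15 and 0.17 over all probesets. The change was larger in males for 1204 probesets and larger on the female array for 817. Set against each control genotype by itself, 1839 of the 2021 passed against the act-Gal4 control, where 18.3% of all probesets passed, and 1823 passed against the P control, where 18.7% passed. Both single comparisons, which share the P/act-Gal4 arrays, were passed by 1653. The 2021 were called on the same values, so these counts are no separate support. For 510 of the calls the mean level was low, below 5 log2 units, on both sides. Changes are given on the log2 scale with no fold, and where a mean was low the log2 change can understate the difference.

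Across genes the male and the female change were related but far from equal. Over all probesets the Pearson correlation of the 2 changes was 0.44 and the Spearman correlation 0.36. Genes are not independent replicates, and these values describe 11 arrays. A test of the difference between the sexes passed 207 probesets (1.1%), with 97 where the male change was above the female change (0.517%) and 110 where it was below (0.586%). In 164 of the 207 the changes ran in opposite directions, which picking probesets by a large difference between the sexes favours. Among the shared calls, which took in 10.8% of all probesets, were 28 of the 207.

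**Figure D2:**
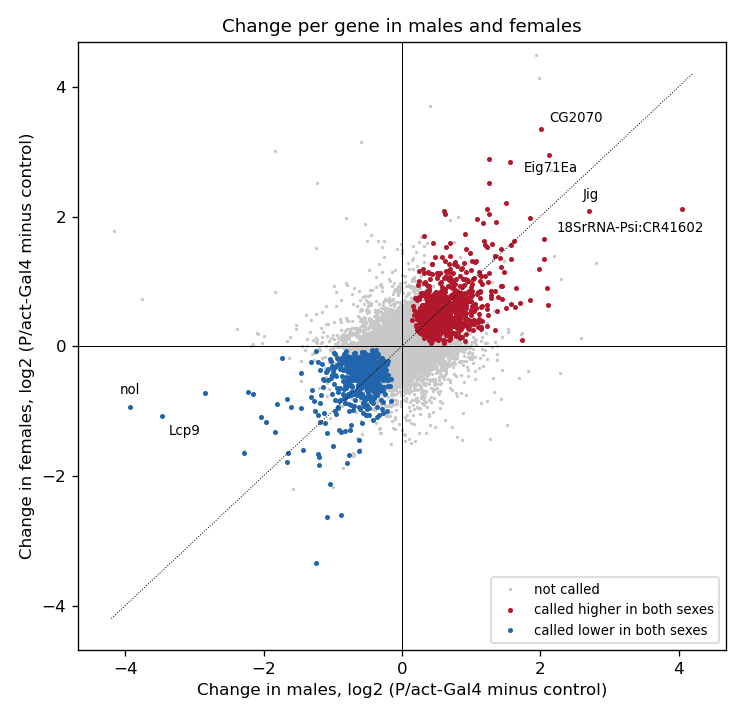
Log2 change (P/act-Gal4 minus the mean of the 4 control arrays of that sex) of each of 11982 genes in males (x axis) and on the single female array (y axis); the dotted line marks equal changes. The 990 genes called higher and the 581 called lower in both sexes lie in the upper right and lower left quadrants, and nol and Lcp9 lie far from the line of equal change.

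Some genes of the ecdysone response were among the largest rises. Of 41 measured genes of the ecdysone response, 12 were called higher and none lower, beside 8.26% higher and 4.85% lower over all genes. The median change of the 41 was 0.14, against -0.01 for all genes. It was 0.05 in males and 0.34 on the single female array, and 0.10 against the act-Gal4 control and 0.25 against the P control. The 12 were the receptor gene EcR (0.43), the early gene br (0.77), Eip93F (0.57), the nuclear receptor Hr78 (0.37), vri (0.38), shd, which encodes the enzyme that makes the active hormone (0.66), the insulin-binding ImpL2 (0.43), the ABC transporter E23 (1.35), and Eig71Ea (2.05), Eig71Ed (1.90), Eig71Eg (1.57) and Eig71Ef (1.13) of the late puff at band 71E. The other 5 measured Eig71E genes were not called, and 6 of all 9 had low means on both sides. Leaving out the P/act-Gal4 female array gave 11 of the 41 higher and 3 lower, and leaving out a P/act-Gal4 male array gave 8 or 10 higher and none lower.

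Eig71Ea (arm 3L) read 6.30 and 6.18 on the P/act-Gal4 male arrays and 6.59 on the P/act-Gal4 female array. It read 4.58 and 4.52 in act-Gal4 males, 4.84 and 4.77 in P males, 4.21 and 4.04 in act-Gal4 females and 3.22 and 3.50 in P females. The 3 arrays lay above every control array of either sex, and the control mean was low (log2 change 2.05 ± 0.25, adjusted p = 0.000724). Eig71Ed read 5.39, 5.43 and 5.33 on the 3 P/act-Gal4 arrays and between 3.20 and 3.80 on the controls (log2 change 1.90 ± 0.11, adjusted p = 7.16e-06). E23, which is induced by ecdysone and limits its action, read 7.16 and 7.47 in P/act-Gal4 males and 7.91 in the P/act-Gal4 female, against 5.87 to 6.41 in control males and 5.62 to 6.83 in control females (log2 change 1.35 ± 0.24, adjusted p = 0.00463).

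Other markers of larval age were not called as higher. ImpE2, an ecdysone-inducible gene of imaginal discs, changed by -3.76 in males and 0.73 on the female array, and these changes differed (adjusted p = 0.00946). The glue genes Sgs3, Sgs7 and Sgs8 changed by 0.01, -0.07 and -0.22 and were not called, and Lsp2, a storage protein of the fat body, changed by 0.08 without a call. Of 16 measured glue genes only Sgs1 and Muc26B were called, both lower (12.5%, against 4.85% of all genes). None was called higher, against 8.26% of all genes. Leaving out the P/act-Gal4 female array gave 4 lower and 1 higher. Sgs1 read 7.95 and 7.97 in P/act-Gal4 males and 9.04 in the P/act-Gal4 female, against 9.98 to 10.28 in control males and 9.53 to 10.03 in control females (log2 change -1.62 ± 0.23, adjusted p = 0.00155). Muc26B, a mucin, read 8.21, 8.22 and 7.89 on the P/act-Gal4 arrays, against 9.20 to 9.30 in control males and 8.54 to 8.70 in control females (-0.91 ± 0.08, adjusted p = 7.22e-05). The part of larval age in these differences was not tested.

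The largest rise of all named genes was 18SrRNA-Psi:CR41602 on the X, a pseudogene of the 18S ribosomal RNA. It read 7.74 and 7.64 on the P/act-Gal4 male arrays and 6.51 on the P/act-Gal4 female array, against 3.57 to 3.70 in control males and 4.24 to 4.53 in control females (log2 change 3.32 ± 0.28, adjusted p = 7.22e-05). Related copies of ribosomal RNA could bind the same probes, so which RNA it measured is uncertain. Jig on arm 3R read 7.29, 7.35 and 6.56 on the 3 P/act-Gal4 arrays, against 4.34 to 4.84 in control males and 4.07 to 4.85 in control females. Its log2 change was 2.47 ± 0.17 (adjusted p = 1.54e-05), 2.71 in males and 2.08 on the female array.

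NLaz, a secreted lipocalin, read 6.22 on both P/act-Gal4 male arrays and 6.84 on the P/act-Gal4 female array, against 4.43 to 4.91 in control males and 3.37 to 5.61 in control females (1.77 ± 0.39, adjusted p = 0.0131). tobi, an alpha-glucosidase regulated by brain insulins, changed by 1.57 ± 0.28, and Gbp1, a growth-blocking peptide of the fat body, by 1.55 ± 0.36. CCHa2, named from the fat body list and a peptide that acts on insulin-producing cells, read 6.46, 6.57 and 6.62 on the P/act-Gal4 arrays, against 4.80 to 5.47 in control males and 5.66 to 5.96 in control females (1.10 ± 0.15, adjusted p = 0.00106). Each of these 4 genes was called higher. Of 25 measured fat body genes, 3 were called higher (12%, against 8.26% of all genes) and 2 lower (8%, against 4.85%). There was 1 higher without P/act-Gal4 male replicate 2 and 2 higher without P/act-Gal4 male replicate 1. The list median was 0.17, 0.24 in males and 0.0004 on the female array. It was -0.08 against the act-Gal4 control and 0.24 against the P control, so it did not lie beyond both controls. Against the act-Gal4 control alone 4 were called higher and 6 lower, and against the P control alone 10 and 2. For all 11982 genes these numbers were 1462 and 1060, and 1581 and 1050.

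Sid, a nuclease induced by stress, read 8.69, 8.74 and 8.91 on the P/act-Gal4 arrays, against 6.97 to 7.30 in control males and 6.68 to 7.92 in control females (1.62 ± 0.25, adjusted p = 0.00231). The change was 1.62 in males and 1.62 on the female array. Spn100A, a serpin, changed by 1.87 ± 0.35, PGRP-SB2, a peptidoglycan recognition protein, by 1.45 ± 0.14, Srg1 by 1.41 ± 0.35 and GILT2, of the lysosomal thiol reductase family, by 1.34 ± 0.14. Of the 35 measured genes of the antimicrobial and immune list, which does not hold PGRP-SB2, 1 was called higher, the lysozyme gene LysX (1.15 ± 0.17), and none lower. The share called higher was 2.86%, against 8.26% of all genes, and 4.85% of all genes were called lower. There were 3 in each direction without the P/act-Gal4 female array. Among genes known by number alone, CG2070 (2.51 ± 0.51) and CG4757 (2.43 ± 0.32) rose most.

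The 2 control genotypes differed from each other for many of the genes with large changes. That the P/act-Gal4 arrays lay beyond both of them follows from the rule of the call. Of the 15 largest named rises, 13 were larger against the P control than against the act-Gal4 control. All 15 passed against each control, which is no separate support, since they were picked as called genes with large changes. Zip102B, a zinc transporter gene on chromosome 4, is the clearest case. It read 5.77, 6.14 and 6.03 on the P/act-Gal4 arrays, 5.11 to 5.55 on the 4 act-Gal4 control arrays and 3.63 to 3.88 on the 4 P control arrays. Its change was 0.72 against the act-Gal4 control and 2.19 against the P control. Nepl6, a neprilysin-like peptidase gene, changed by 0.68 and 2.06 in the same comparisons. Of the 15 largest named falls, 12 were larger against the act-Gal4 control. All 15, picked in the same way, passed against each control.

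**Figure D3:**
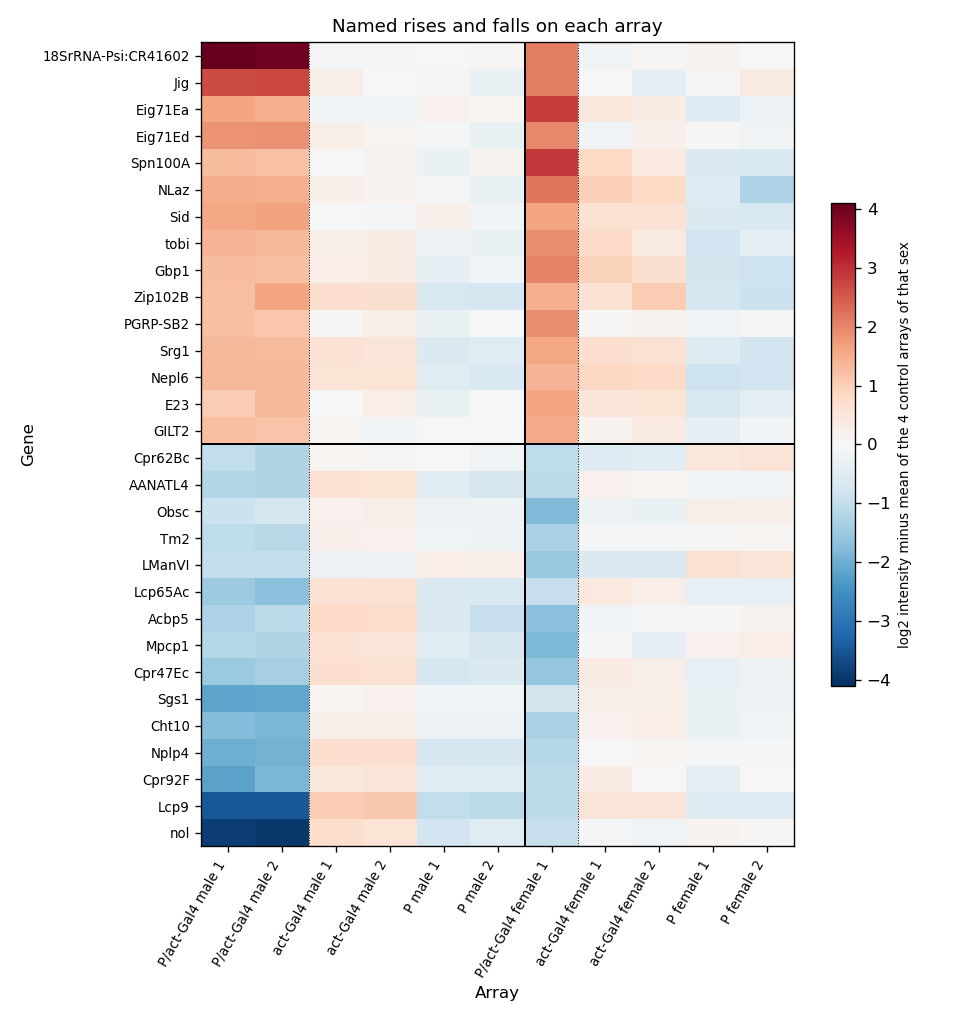
Log2 intensity of the 15 largest named rises (above the line) and 15 largest named falls (below it) on each array, given as the difference from the mean of the 4 control arrays of the same sex; red is higher and blue lower. By the rule of the call, all 3 P/act-Gal4 arrays differ from their controls in 1 direction for each gene. The act-Gal4 and P controls differ from each other for genes such as Zip102B and Lcp9.

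Genes of the larval cuticle were called in both directions. Of 73 measured, 9 were called lower (12.3%, against 4.85% of all genes) and 4 higher (5.48%, against 8.26%), with a median of -0.12. The number called lower was 6 without P/act-Gal4 male replicate 2, 7 without P/act-Gal4 male replicate 1 and 10 without the P/act-Gal4 female array, and 2 were called higher without P/act-Gal4 male replicate 2 or without the P/act-Gal4 female array. Lcp9, a larval cuticle protein gene on arm 2R, read 6.70 and 6.71 on the P/act-Gal4 male arrays and 9.57 on the P/act-Gal4 female array. It read 11.20 and 11.26 in act-Gal4 males, 9.15 and 9.05 in P males, 11.20 and 11.16 in act-Gal4 females and 10.14 and 10.13 in P females. The P/act-Gal4 arrays were the lowest of each sex, and the change was -2.57 ± 0.58 (adjusted p = 0.0141). Cpr47Ec read 5.99 and 6.15 in P/act-Gal4 males and 7.60 in the P/act-Gal4 female, against 6.77 to 8.19 in control males and 8.85 to 9.52 in control females (-1.49 ± 0.29, adjusted p = 0.00723). Cpr92F changed by -1.68 ± 0.26, Lcp65Ac by -1.36 ± 0.30 and Cpr62Bc by -1.09 ± 0.21. The chitinase gene Cht10 read 7.10, 6.98 and 7.23 on the P/act-Gal4 arrays, against 8.64 to 9.09 in control males and 8.30 to 8.84 in control females (-1.64 ± 0.16, adjusted p = 0.00015). The 4 members called higher were Cht5 (1.12), another chitinase gene, knk (0.49), Cpr47Ee (0.38) and Cpr78E (0.33).

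The largest named fall was nol on arm 3L. It read 3.75 and 3.68 on the P/act-Gal4 male arrays and 7.06 on the P/act-Gal4 female array, against 6.85 to 8.37 in control males and 7.86 to 8.16 in control females. The change was -2.81 ± 0.50 (adjusted p = 0.00424), and it was larger in males, -3.93, than on the female array, -0.94 (adjusted p of the difference 0.0374). Nplp4, a neuropeptide-like precursor gene, changed by -1.67 ± 0.30, LManVI, an alpha-mannosidase gene, by -1.20 ± 0.27, Acbp5, an acyl-CoA-binding protein gene, by -1.39 ± 0.33 and AANATL4 by -1.16 ± 0.24. CG11300 (-2.05 ± 0.33) and CG34278 (-2.04 ± 0.16) fell most among genes known by number alone.

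Genes of mitochondrial respiration fell together, by small amounts. Of 57 measured subunit genes of the respiratory chain and the ATP synthase, 39 were called lower (68.4%, against 4.85% of all genes) and 1 higher (1.75%, against 8.26%). Of the 57, 52 were negative in both sexes (91.2%), where 32.8% of all genes were. Their median change was -0.49, -0.43 in males and -0.57 on the female array. Array by array, the median member lay 0.44 and 0.42 below the control mean on the P/act-Gal4 male arrays and 0.57 below it on the P/act-Gal4 female array. On the control arrays it lay between -0.20 and 0.17. The act-Gal4 controls were above the P controls by a median of 0.30 in males and below them in females (-0.25), and the P/act-Gal4 arrays lay below both in each sex. Without P/act-Gal4 male replicate 2 the number called lower was 24, and without P/act-Gal4 male replicate 1 or without the P/act-Gal4 female array it was 27.

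Calls were made in all 5 complexes. In complex I, the NADH dehydrogenase, 18 of 27 measured genes were called lower (median -0.48). In complex II, the succinate dehydrogenase, 3 of 3 were called lower (median -0.72). In complex III it was 5 of 7 (median -0.50), in complex IV, the cytochrome c oxidase, 7 of 8 (median -0.53), and in the ATP synthase 6 of 12 (median -0.42). Leaving out P/act-Gal4 male replicate 1 gave 9 called lower in complex I, 3 in complex II, 3 in complex III, 6 in complex IV and 6 in the ATP synthase. With P/act-Gal4 male replicate 2 left out, the numbers in the same order were 10, 3, 3, 5 and 3. With the P/act-Gal4 female array left out they were 14, 2, 3, 4 and 4. ND-75, a subunit of complex I, read 7.60, 7.50 and 7.19 on the P/act-Gal4 arrays, against 8.14 to 8.42 in control males and 8.30 to 8.71 in control females (-0.96 ± 0.13, adjusted p = 0.000998). RFeSP, the iron-sulphur protein of complex III, read 7.42, 7.45 and 7.67, against 8.0 to 8.48 in control males and 8.13 to 8.92 in control females (-0.84 ± 0.17, adjusted p = 0.0093). Its other probeset had the same sign and was not called. levy, a subunit of complex IV, read 9.07 on both P/act-Gal4 male arrays and 9.32 on the P/act-Gal4 female array, against 9.60 to 10.16 in control males and 9.96 to 10.27 in control females (-0.82 ± 0.13, adjusted p = 0.00231).

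The exception was UQCR-11 of complex III. It read 5.79 and 5.99 in P/act-Gal4 males and 6.23 in the P/act-Gal4 female, against 4.61 to 5.15 in control males and 5.36 to 6.05 in control females, a change of 0.82 ± 0.17 (adjusted p = 0.00807). Outside the respiratory list, the mitochondrial phosphate carrier gene Mpcp1 changed by -1.43 ± 0.27. Only 2 of 14 genes of heat shock and stress chaperones were called, both lower (14.3%, against 4.85% of all genes). Both encode chaperones of the mitochondrion. Either P/act-Gal4 male array left out gave 1 called lower, and the P/act-Gal4 female array left out gave 3. Hsp60A read 8.20, 8.30 and 8.02 on the P/act-Gal4 arrays, against 9.09 to 9.33 in control males and 8.77 to 8.97 in control females (-0.91 ± 0.08, adjusted p = 0.000102), and Hsc70-5 changed by -0.26 ± 0.08 (adjusted p = 0.0488). The change of Hsc70-5 was -0.35 in males and -0.12 on the female array. Against the act-Gal4 control alone Hsc70-5 did not pass (-0.23, adjusted p = 0.0921).

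Glycolysis fell as well. Of 12 measured genes 8 were called lower (66.7%, against 4.85% of all genes) and none higher (against 8.26%), with a median of -0.57. In the order of the pathway, the called genes were Pgi (-0.44), Pfk (-0.91), Ald1 (-0.73), Tpi (-0.84), Gapdh1 (-0.49), Pgk (-0.64), Pglym78 (-0.76) and Eno (-0.79). Tpi, the triose phosphate isomerase, read 10.09, 10.23 and 10.22 on the P/act-Gal4 arrays, against 10.70 to 11.23 in control males and 11.03 to 11.19 in control females (adjusted p = 0.00129). Pglym78, the phosphoglycerate mutase, read 7.38, 7.38 and 7.82, against 8.14 to 8.20 in control males and 8.46 to 8.69 in control females (adjusted p = 0.000115). Hex-A (0.31), Hex-C (-0.14), Pgm1 (0.09) and Gpdh1 (-0.35) were not called. Leaving out any 1 of the 3 P/act-Gal4 arrays left 5 calls.

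Part of the muscle list fell too. Of 25 measured genes 5 were called lower (20%, against 4.85% of all genes) and 1 higher (4%, against 8.26%), with a median of -0.14. Leaving out any 1 of the 3 P/act-Gal4 arrays left 4 called lower. Tm2, a tropomyosin, averaged 9.96 over the P/act-Gal4 male arrays and read 9.93 on the P/act-Gal4 female array, against 10.83 to 11.23 in control males and 11.21 to 11.34 in control females (-1.18 ± 0.10, adjusted p = 9.94e-05). The troponin T gene up changed by -1.05 ± 0.19, Obsc, the obscurin gene, by -1.16 ± 0.20 (its other probeset had the same sign and was not called), Mlc1 by -0.56 and Mf by -0.44. The member called higher was tn (0.59 ± 0.09). In RNA of whole larvae, fewer cells of a type and less RNA per cell cannot be told apart.

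**Figure D4:**
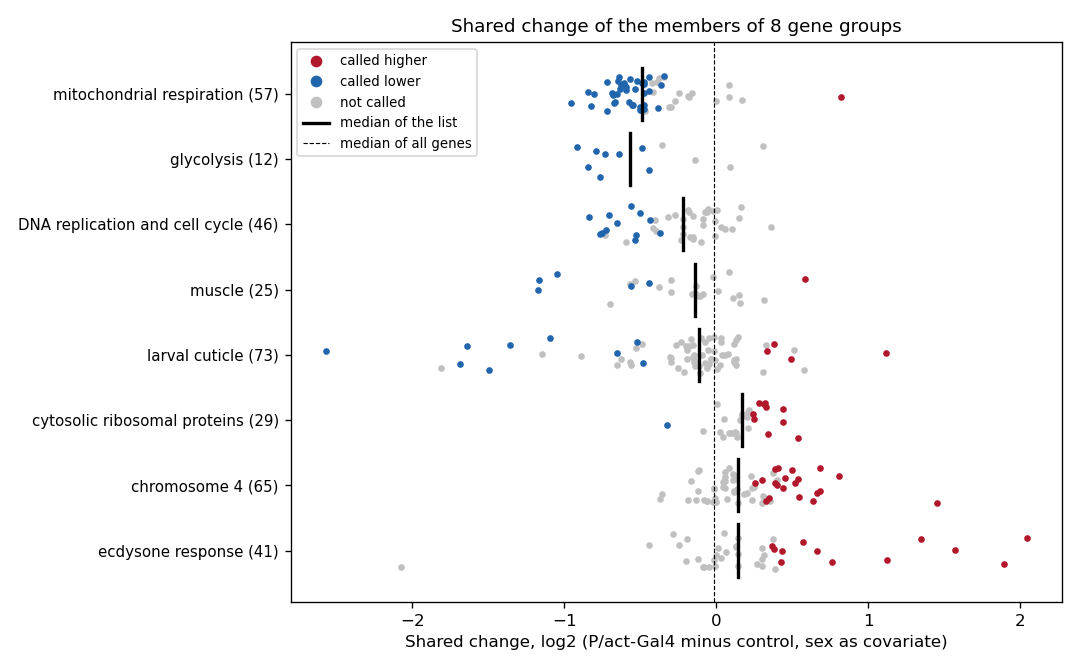
Shared log2 change of every measured member of 8 gene groups, with the number of members in brackets; coloured points are called genes, thick bars are list medians and the dashed line is the median of all genes, -0.01. The members of mitochondrial respiration (median -0.49) and glycolysis (median -0.57) lie mostly to the left, and the 20 called genes of chromosome 4 lie to the right.

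Replication and cell cycle genes were called in 1 direction. Of 46 measured genes 12 were called lower (26.1%, against 4.85% of all genes) and none higher (against 8.26%). The median was -0.22, -0.24 in males and -0.12 on the female array. Among 18 genes of replication origins and forks 6 were called lower and none higher, and among 6 cyclin and Cdk genes none was called. Mcm6, of the replicative helicase, read 5.36, 5.41 and 5.66 on the P/act-Gal4 arrays, against 6.12 to 6.57 in control males and 6.11 to 6.38 in control females (-0.83 ± 0.12, adjusted p = 0.00121). PCNA, the sliding clamp, read 5.78, 5.79 and 5.72, against 6.16 to 6.83 in control males and 6.34 to 6.56 in control females (-0.73 ± 0.12, adjusted p = 0.00272). Mcm5 (-0.77) and dpa (-0.75), which encode other helicase subunits, were called at low means on both sides, and 24 of the 46 genes had such means. The number called lower was 8 without either P/act-Gal4 male array and 19 without the P/act-Gal4 female array.

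Of 29 measured genes of cytosolic ribosomal proteins, 10 were called higher (34.5%, against 8.26% of all genes), by small amounts. Only RpLP0 (-0.33) was called lower (3.45%, against 4.85% of all genes), and the list median was 0.17. Leaving out either P/act-Gal4 male array gave 5 called higher, and leaving out the P/act-Gal4 female array gave 8. RpL37A read 13.15, 13.20 and 13.16 on the P/act-Gal4 arrays, against 12.54 to 12.64 in control males and 12.51 to 12.77 in control females (0.54 ± 0.07, adjusted p = 0.00117). RpS26 and RpLP1 both changed by 0.44. After a further quantile normalization the list had 4 calls higher and a median of 0.05. Over all 11982 genes that normalization gave 768 calls higher.

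Chromosome 4, which HP1 coats in wild-type flies, had the highest share of genes called higher. Of its 65 measured genes 20 were called higher (30.8%) and none lower, while the other arms had 7.03% to 8.94% higher and 4.27% to 5.55% lower. The median change of chromosome 4 was 0.14, 0.23 in males and 0.10 on the female array, against -0.02 to -0.01 on the other arms. It was 0.22 against the act-Gal4 control and 0.11 against the P control, comparisons that share the P/act-Gal4 arrays. The median gene lay 0.19 and 0.32 above the control mean on the P/act-Gal4 male arrays and 0.10 above it on the P/act-Gal4 female array, and between -0.02 and 0.03 on the control arrays. Without P/act-Gal4 male replicate 2 the number called was 6, without P/act-Gal4 male replicate 1 it was 12, and without the P/act-Gal4 female array it was 17. In the same settings and order, 438, 614 and 1104 of all 11982 genes were called higher, against 990 with all arrays.

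After Zip102B, dati, which encodes a zinc finger protein, changed most on this chromosome. It read 5.65, 5.79 and 5.93 on the P/act-Gal4 arrays, against 4.63 to 5.22 in control males and 4.91 to 5.19 in control females (0.81 ± 0.12, adjusted p = 0.00169), although its other probeset had the opposite sign. CG11360 and CG1909 both changed by 0.68, at low means on both sides. unc-13, needed for the release of synaptic vesicles, read 6.88, 7.02 and 6.61 on the P/act-Gal4 arrays, against 5.93 to 6.4 in control males and 5.90 to 6.41 in control females (0.66 ± 0.14, adjusted p = 0.0106). gw, a factor of silencing by microRNAs, read 9.76, 9.81 and 9.72, against 9.19 to 9.38 in control males and 9.16 to 9.48 in control females (0.45 ± 0.08, adjusted p = 0.0052). ci (-0.08), ey (-0.06) and toy (-0.19), transcription factor genes of the same chromosome given after their values were seen, were not called.

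**Figure D5:**
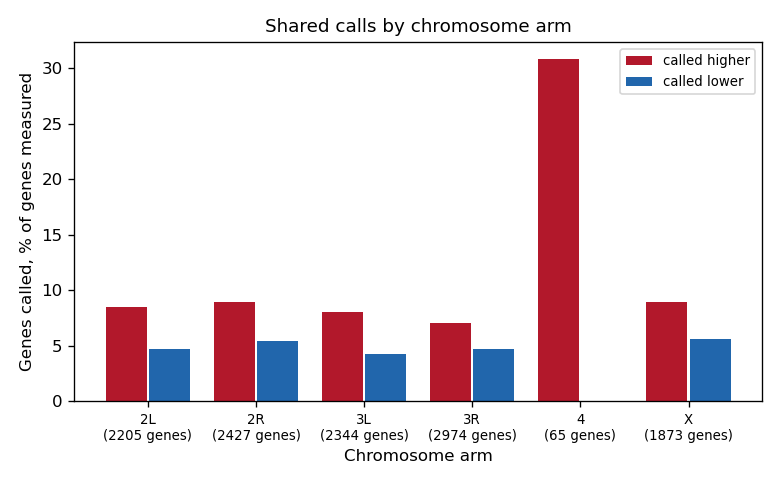
Share of measured genes called higher (red) and lower (blue) in larvae with both transgenes on each chromosome arm, in percent; bars start at 0. Chromosome 4 has 30.8% higher and 0% lower, and the other 5 arms have 7.03% to 8.94% higher.

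Genes near centromeres gave 4 calls. Of 15 measured genes of pericentric heterochromatin 3 were called higher (20%, against 8.26% of all genes) and 1 lower (6.67%, against 4.85%), with a median of 0.05. Without P/act-Gal4 male replicate 2 or without the P/act-Gal4 female array 2 were called higher. cta, a G protein subunit gene, read 5.43 and 5.89 on the P/act-Gal4 male arrays and 5.89 on the P/act-Gal4 female array, against 4.91 to 5.05 in control males and 4.87 to 5.42 in control females (0.67 ± 0.12, adjusted p = 0.00455). Snap25 (0.68) and Haspin (0.29) were called at low means on both sides, and the member called lower was Cht10. lt (0.16), RpL15 (0.13) and Nipped-B (-0.11), also given after their values were seen, were not called.

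Genes of heterochromatin proteins moved in both directions. Of 39 measured, 4 were called higher (10.3%, against 8.26% of all genes) and 4 lower (10.3%, against 4.85%), with a median of -0.05. The share called higher was near that of all genes. Leaving out either P/act-Gal4 male array gave 2 higher and 3 lower, and leaving out the P/act-Gal4 female array gave 4 higher and 12 lower. JIL-1, the kinase of histone H3 that keeps chromatin open and is enriched on the male X, read 5.37 and 5.57 in P/act-Gal4 males and 5.24 in the P/act-Gal4 female, against 4.28 to 4.58 in control males and 4.06 to 4.95 in control females (0.90 ± 0.16, adjusted p = 0.00457). Su(var)2-HP2, a partner of HP1, changed by 0.46 ± 0.08, sov by 0.36 and mod(mdg4) by 0.27. Both called paralogs of HP1 were lower. HP1b read 5.17, 5.19 and 5.82 on the P/act-Gal4 arrays, against 5.70 to 6.09 in control males and 6.01 to 6.31 in control females (-0.59 ± 0.11, adjusted p = 0.00503), and HP1c changed by -0.43 ± 0.13 (adjusted p = 0.0482). vig2, a chromatin protein gene, read 8.53, 8.64 and 8.44, against 9.19 to 9.35 in control males and 8.87 to 9.01 in control females (-0.60 ± 0.07, adjusted p = 0.00065), and aurB was called lower (-0.66) at low means on both sides.

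Of 8 measured genes listed under dosage compensation, the system that raises the output of the male X, 3 were called higher (37.5%) and none lower. Over all genes the shares were 8.26% and 4.85%. The number called higher was 2 without P/act-Gal4 male replicate 2. The 3 were JIL-1, Su(var)2-HP2 and msl-3 (0.39 ± 0.10, adjusted p = 0.0211), whose other probeset had the opposite sign. JIL-1 and Su(var)2-HP2 were already counted among heterochromatin proteins above. Su(var)2-HP2 is a partner of HP1, and its place in this list is doubtful. msl-2, the subunit made in males, changed by 0.07 and mle by 0.25, and neither was called. On the X 167 of 1873 genes were called higher (8.92%) and 104 lower (5.55%). None of 16 measured genes of sex determination was called, against 13.1% of all genes, and 9 of the 16 had low means on both sides. Sxl read 6.99, 7.0 and 6.64 on the P/act-Gal4 arrays, within the control range of 6.37 to 7.25 in males and 6.39 to 7.01 in females.

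Markers of blood cells and of the nervous system rose in part. Of 33 measured hemocyte genes 7 were called higher (21.2%, against 8.26% of all genes) and 1, NimC3, lower (-0.54, at low means on both sides). The hemocyte median was 0.09, 0.31 in males and 0.04 on the female array. It was 0.07 against the act-Gal4 control and 0.33 against the P control. Against the act-Gal4 control alone 7 hemocyte genes were called higher and 6 lower, and against the P control alone 17 and 1. Of all 11982 genes, 1462 were called higher and 1060 lower against the act-Gal4 control alone, and 1581 and 1050 against the P control alone. srp, the GATA factor of blood and fat body, read 6.62 and 7.17 in P/act-Gal4 males and 6.94 in the P/act-Gal4 female, against 5.96 to 6.32 in control males and 5.64 to 6.72 in control females (0.75 ± 0.22, adjusted p = 0.0444). Against the act-Gal4 control alone srp did not pass (0.45, adjusted p = 0.0626), and its change against the P control was 1.06. Pvr, a receptor tyrosine kinase gene, changed by 0.56 ± 0.14. The hemocyte counts were 2 higher without P/act-Gal4 male replicate 2, 3 higher without P/act-Gal4 male replicate 1 and 9 higher without the P/act-Gal4 female array. Of 36 measured nervous system genes 8 were called higher (22.2%, against 8.26% of all genes) and 1, Nplp4, lower (2.78%, against 4.85%). Those called higher included cac, a calcium channel gene (0.85 ± 0.24, with an opposite sign in its other probeset), unc-13 and Snap25. The median of the 36 was 0.08. The nervous system list had 3 called higher without P/act-Gal4 male replicate 2. Its median was 0.16 in males and 0.03 on the female array, and 0.14 against the act-Gal4 control and 0.01 against the P control.

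In the midgut list 4 of 50 genes were called higher (8%, near the 8.26% of all genes) and 5 lower (10%, against 4.85%). Leaving out 1 P/act-Gal4 array gave 3 to 6 higher and 2 to 4 lower. The lowest number in the lower direction came without P/act-Gal4 male replicate 2. The digestive trypsin gene alphaTry read 11.21, 11.26 and 10.84 on the P/act-Gal4 arrays, against 9.91 to 10.07 in control males and 10.13 to 10.31 in control females (1.01 ± 0.11, adjusted p = 0.000318). Its relative thetaTry ran the other way, with 7.18, 7.09 and 7.64 against 7.74 to 8.26 in control males and 8.44 to 8.71 in control females (-0.92 ± 0.11, adjusted p = 0.000605). Of 87 genes of xenobiotic metabolism 3 were called in each direction (3.45% each), led by Cyp6w1 (1.12 ± 0.30) and Cyp6a23 (-0.93 ± 0.24). The higher share was below the 8.26% of all genes. Leaving out the P/act-Gal4 female array gave 11 higher and 0 lower, and leaving out either P/act-Gal4 male array gave 1 in each direction. Cyp6w1 changed by 1.74 in males and by only 0.10 on the female array, and Cyp6a23 by -0.62 and -1.45. Both genes passed when compared with the P control (1.38 and -1.12). Neither passed when compared with the act-Gal4 control (0.87 and -0.73). Of 33 imaginal disc genes 3 were called higher (9.09%) and 1 lower (3.03%), shares near those of all genes, with 0 higher without P/act-Gal4 male replicate 2 and 7 lower without the P/act-Gal4 female array. Of 16 tanning genes 2 were called higher (12.5%, against 8.26% of all genes) and 1 lower (6.25%, against 4.85%). There was 1 higher without the P/act-Gal4 female array and 0 lower without P/act-Gal4 male replicate 1. Of 21 genes of DNA damage and apoptosis 3 were called higher (14.3%, against 8.26% of all genes) and none lower (against 4.85%). Among the 3 were the caspase gene Dronc (0.58 ± 0.15) and the TNF gene egr (0.50 ± 0.09). The number called higher was 1 without P/act-Gal4 male replicate 2 and 5 without the P/act-Gal4 female array. In the RNA interference list, Dcr-2, the Dicer that makes small interfering RNAs, was called higher (0.49 ± 0.14), with gw, and Fmr1 lower (-0.53 ± 0.10), among 26 genes. These are 7.69% higher and 3.85% lower, near the 8.26% and 4.85% of all genes. There were 4 lower without the P/act-Gal4 female array and 1 higher without either P/act-Gal4 male array. The other probeset of Fmr1 had the opposite sign. Dcr-2 passed when compared with the P control (0.67) but not when compared with the act-Gal4 control (0.30).

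Of 27 genes of the ovary and female germline 5 were called higher (18.5%, against 8.26% of all genes) and none lower (against 4.85%). The rises were led by BicD, a dynein adaptor (0.71 ± 0.10), and tud (0.63 ± 0.14). Leaving out P/act-Gal4 male replicate 2 gave 2 higher, and leaving out the P/act-Gal4 female array gave 5 higher and 5 lower. Of 57 testis genes 3 were called higher (5.26%) and 2 lower (3.51%), both shares below those of all genes. Leaving out the P/act-Gal4 female array gave 1 higher and 14 lower of the 57, where 1104 and 899 of all 11982 genes were called. In that setting, which calls in males alone, the share of testis genes called lower was thus above that of all genes. Leaving out P/act-Gal4 male replicate 2 gave 1 in each direction, and leaving out P/act-Gal4 male replicate 1 gave 2 higher and 1 lower. Mst87F, a sperm protein gene, read 10.80 and 10.76 in P/act-Gal4 males and 6.57 in the P/act-Gal4 female, against 9.96 to 10.32 in control males and 4.84 to 5.21 in control females (0.98 ± 0.16, adjusted p = 0.00314). Its female value stands beside the reading of male transcripts on that array given above, whose part in it was not tested. The 7 measured Y-linked genes read at most 3.27 on every array, male ones included, and gave no information on sex. The yellow gene, a possible transgene marker, was low on all arrays and was not called.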

How the data were processed

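Total RNA of whole larvae was labelled and hybridised to 11 single-channel arrays. The deposited values are linear intensities, 1 per probeset and array, which the authors summarised with RMA per the submitters' processing notes; version and options are not given in the sources used here. RMA brings arrays to a common distribution, which can move small changes, and whether all arrays were processed together is not given.

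Arrays were grouped by title (genotype and sex), since strain and description labels conflict with titles for some arrays. Log2 was taken with no pseudocount and no filter. Of 18952 probesets, 183 controls were left out, and of 18769 tested 13647 have 1 gene, 402 several and 4720 none in the platform table. RefSeq gave a chromosome for 13544. Genes were represented by their probeset with the highest mean. With limma 3.58.1 (lmFit, then eBayes) in R 4.3.3, a model with 8 residual degrees of freedom fitted genotype with sex as a covariate and both controls pooled. P-values were adjusted by Benjamini-Hochberg over all probesets, with a threshold of 0.05. Changes within each sex and their difference came from a fit with 4 groups, in which the spread of the single female P/act-Gal4 array is taken to equal that of the other groups. Changes against each control came from a fit with 3 genotypes.

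The members and the 27 gene lists were chosen with earlier results of these data known, and wrongly matched or uncertain symbols were removed from lists after values were seen. Named genes were the 15 largest rises and 15 largest falls among called genes with a name and a mean of at least 5 log2 units in 1 genotype, 2 each way among genes known by number, the HP1 gene, and up to 4 called members of each list, or 2 members by level where none was called. Subgroups of lists, and all called members of a list, were named after values were seen.

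In a test on simulated arrays with 18769 probesets, log2 changes of 0.25, 0.5, 1 and 2 were found by the shared rule in 2%, 44%, 94% and 100% of cases. The simulated noise was independent between arrays, whereas real control arrays of 1 genotype can read close together, as for Zip102B. These shares may therefore not hold for the real arrays. Alternatives were other models of genotype, weights, normalizations, thresholds, filters and omissions of arrays. Figures were drawn with matplotlib 3.10.9.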

Additional observations from a re-analysis of the deposited data

Results flagged for a closer look

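For 5 genes among those named, the change differed between the sexes at an adjusted p under 0.05, given here as the male minus the female log2 change. The difference was 1.93 for 18SrRNA-Psi:CR41602, where the rise was larger in males, and 0.84 for Cyp6a13. It was -3.0 for nol, -1.41 for Sgs1 and -2.13 for CG11300, where the fall was larger in males. Each of these tests rests on 1 P/act-Gal4 female array. Cyp6a13, a cytochrome P450 gene, read 7.45 and 7.38 in P/act-Gal4 males and 7.25 in the P/act-Gal4 female, against 6.16 to 6.45 in control males and 6.88 to 7.01 in control females.

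In 6 genes 1 of the 4 control females stood apart from the other 3 by Dixon's criterion. They were P control female replicate 1 for HP1b (6.01), msl-3 (4.75) and vg (5.35), P control female replicate 2 for Lsd-2 (9.60) and Cyp6w1 (6.24), and act-Gal4 control female replicate 2 for NimC3 (3.51). Chance flags about 1 in 20 groups, and 224 groups of 4 were examined.

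The GAL4 control probeset, which enters no comparison between genotypes, averaged 3.71 log2 units higher over both sexes on the P/act-Gal4 arrays than on the controls, of which the P controls lack the driver.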

How the results depend on the processing

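The design has 1 P/act-Gal4 female array, and the female arrays alone called 24 probesets under the shared rule and 24 on adjusted p alone where the male arrays alone called 2666. Intensities near background limit what can be measured, and 510 calls had low means on both sides. No paired analysis was possible because the labels give no replicate numbers.

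The 2021 shared calls were 3268 against the act-Gal4 control alone, 3317 against the P control alone and 163 at a log2 change of at least 1. Leaving out 1 array gave 872 (without P/act-Gal4 male replicate 2) to 2446 (without the P/act-Gal4 female array), with 1154 without P/act-Gal4 male replicate 1. Of the 2021, 1382 were called without the female array and 867 without male replicate 2. On adjusted p alone, the 2299 probesets were 3729 with 3 genotype levels, 3505 against the P control alone, 4869 with array weights and 175 at a log2 change of at least 1. Leaving out 1 array gave 872 to 2447. The 207 probesets that differ between the sexes were 527 with array weights and 404 at an adjusted p under 0.1. Leaving out 1 array gave 12 (without P/act-Gal4 male replicate 1) to 169, with 20 without P/act-Gal4 male replicate 2 and 110 without either P control male.

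The change of the HP1 transcript passed at -0.42 against the act-Gal4 control alone, -0.53 with array weights, -0.40 after quantile normalization and -0.53 in males alone. Leaving out 1 array gave -0.53 (without the P/act-Gal4 female array) to -0.19. The cause of these shifts was not tested. Other normalizations, filters and models kept the 3 counts within 1.5 times. No named call changed direction under any alternative. Of 106 named calls, 72 passed the adjusted p without P/act-Gal4 male replicate 2, 84 without male replicate 1 and 85 without the female array. On the female arrays alone 7 of the 106 passed, and 5 passed under every alternative that tested them. The filter on transcripts of males, added after seeing the data, left 1984 calls.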
